A study of Homo sapiens with 2 samples.

Results

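RLIM and KLHL15 are 2 genes for ubiquitin ligase components whose RNA carried several YBX1 binding sites. A binding site was taken as theirs if its midpoint lay in the hg38 GENCODE span of the gene on the site's own strand. This gave 5 sites in RLIM and 5 in KLHL15, which is 10 of the 2054 sites in the deposited list. Both genes were chosen by their number of sites, so these counts are a description and support nothing by themselves. At least 1 site was found in 6.44% and 5 or more in 0.118% of all genes that code for protein. The sites came from PAR-CLIP of YBX1 in HEK293, a line derived from human embryonic kidney. By the study's methods these were T-REx HEK293 Flp-In cells made for stable overexpression of FLAG/HA-tagged YBX1, which was precipitated through its tag, while the sample labels name the antibody D2A11 against YBX1. The 2 replicates were pooled by the authors into 1 list, and there is no control sample. The list has positions but no read counts or scores, so neither the depth of a site nor its strength is known, and no spread between replicates can be given.

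YBX1 is a cold-shock domain protein that binds mRNA and is known for its part in mRNA packaging, stability and translation. In PAR-CLIP, cells build 4-thiouridine into new RNA, UV light crosslinks it to the bound protein, and RNase T1, which cuts after G, trims the RNA around the protein. Ubiquitin ligases select the proteins to which ubiquitin is attached, often as a mark for degradation by the proteasome. RLIM, also called RNF12, is a RING-type ligase encoded on the X chromosome. It is known for ubiquitination of LDB1, the cofactor of LIM homeodomain proteins, and of REX1 (ZFP42), and for its role in X inactivation in the mouse. KLHL15 is a kelch-BTB protein, which brings substrates to the CUL3 ligase, and its known substrates include the phosphatase subunit PPP2R5B and the DNA end resection factor RBBP8 (CtIP).

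The 10 sites are shown because they carry all the evidence on these genes. They are given 5′ to 3′ on the RNA strand, with T for U, from the hg38 genome. Both genes lie on the minus strand of chromosome X, so the numbering of sites along the RNA runs against the coordinates. Capitals mark the 5 tetramers that were searched on the RNA strand, which are the tetramer CATC, the tetramer CACC, the tetramer CAAC, the tetramer AACA and the tetramer AACT. They can overlap, as AACA does with CATC in RLIM site 1 and CAAC with AACT in KLHL15 sites 3 and 4.
RLIM site 1: tcctAACATCtcaaatttaaag
RLIM site 2: tcaaatactctacaaaataAACAag
RLIM site 3: ctttcaatcctatctaag
RLIM site 4: ttttaaaAACTcacttctag
RLIM site 5: ccttAACTctatttag
KLHL15 site 1: taaaatacttctcttaaag
KLHL15 site 2: cataCAACctataaatacacaag
KLHL15 site 3: CAACTcccattttttacattcagta
KLHL15 site 4: CACCtttCAACTctttaaatgcagag
KLHL15 site 5: tatAACTtcaatattacacaag

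All 5 RLIM sites lay in the 3′UTR. The RLIM gene (ENSG00000131263) spans chrX:74582976-74614624, and its MANE Select transcript RLIM-201 has 4 exons, 10565 nt and a 3′UTR of 8464 nt in a single exon. Site 1 (chrX:74590024-74590045, 22 nt) began 1395 nt after the stop codon. Site 2 (chrX:74589667-74589691, 25 nt) began at nt 1749, and site 3 (chrX:74589559-74589576, 18 nt) at nt 1864. These 3 sites lay close together, between 16.5% and 22.02% of the way along the 3′UTR, with 332 nt between sites 1 and 2 and 90 nt between sites 2 and 3. Site 4 (chrX:74588555-74588574, 20 nt) began at nt 2866, which is 33.9% of the way along the 3′UTR. Site 5 (chrX:74586261-74586276, 16 nt) began at nt 5164, or 61.0% of the way. The gap before site 4 was 984 nt and that before site 5 was 2278 nt, and no site lay in the coding sequence of 1875 nt. After site 5 the 3′UTR ran on for about 3300 nt with no listed site.

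The position of the RLIM sites separates the 2 annotated coding transcripts. RLIM-202 ends after 1322 nt of 3′UTR, before the first site at nt 1395, and held 0 of the 5 sites. All 5 were therefore found only in the long 3′UTR of RLIM-201. The list gives no level for either transcript.

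KLHL15 carried 1 site in its coding sequence and 4 in its 3′UTR. The gene (ENSG00000174010) spans chrX:23983716-24027186, and its MANE Select transcript KLHL15-201 has 4 exons, 6272 nt, a coding sequence of 1815 nt and a 3′UTR of 4201 nt. Site 1 (chrX:23988830-23988848, 19 nt) covered codons 296 to 302. Site 2 (chrX:23987310-23987332, 23 nt) began 589 nt after the stop codon, site 3 (chrX:23986822-23986846, 25 nt) at nt 1075 and site 4 (chrX:23986522-23986547, 26 nt) at nt 1374. Sites 2, 3 and 4 thus lay between 14.02% and 32.7% of the way along the 3′UTR, with gaps of 463 and 274 nt between them. Site 5 (chrX:23984199-23984220, 22 nt) stood apart at nt 3701, 88.1% of the way along and 479 nt before the end of the transcript. The gap before it was 2301 nt, close to the 2278 nt gap before the last RLIM site.

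The 6 annotated KLHL15 transcripts differ in which sites they hold. The coding site was in the coding sequence of all 6. KLHL15-201, KLHL15-203, KLHL15-204 and KLHL15-206 held sites 2 to 5 in their 3′UTR. KLHL15-202, with a 3′UTR of 1522 nt, held sites 2 to 4 and lacked site 5. KLHL15-205, which has another end of the coding sequence and a 3′UTR of 907 nt, held site 5 alone in its 3′UTR. In RLIM the first 3 sites of the 3′UTR lay between 16.5% and 22.02% of the way along, and site 4 at 33.9%. In KLHL15 the first 3 sites of the 3′UTR lay between 14.02% and 32.7%. Positions were not compared with those of sites in other genes. The short 3′UTR of KLHL15-202 includes these 3 KLHL15 sites, while the short 3′UTR of RLIM-202 ends before the first RLIM site.

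**Figure D1:**
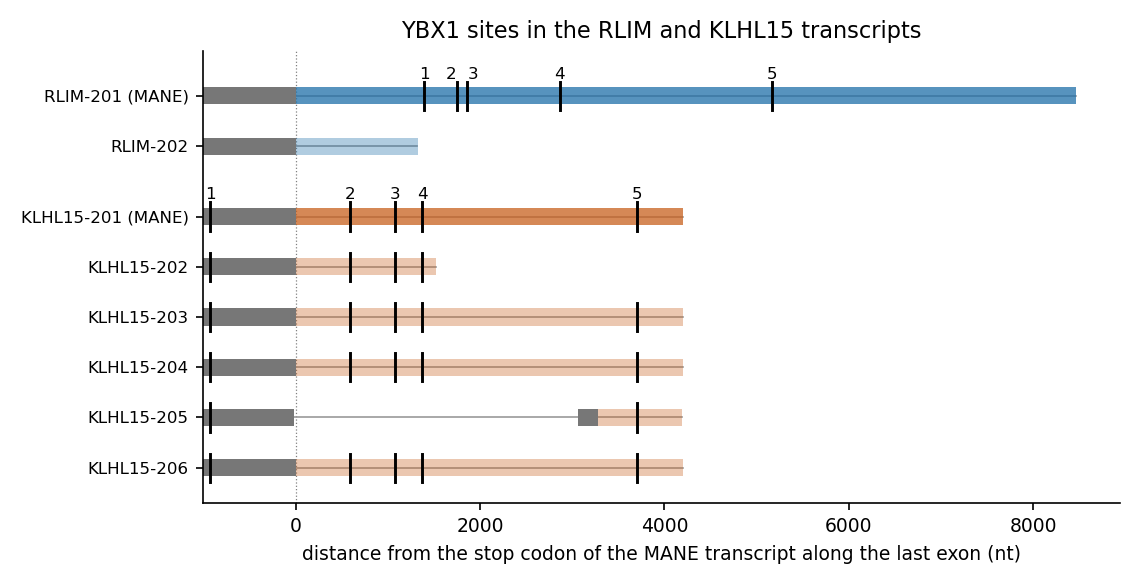
Positions of the YBX1 sites (black ticks, numbered 5′ to 3′) on each annotated coding transcript of RLIM and KLHL15, as the distance in nt from the stop codon of the MANE Select transcript. Grey bars are the end of the coding sequence, coloured bars are 3′UTRs and thin lines are introns. RLIM-202 holds 0 of the 5 RLIM sites, and KLHL15-202 holds sites 1 to 4 of KLHL15.

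The region of the sites was the same by the authors' gene names and classes, which put 9 of the 10 in a 3′UTR and the KLHL15 coding site in an exon. In GENCODE, 9 of 10 sites of the pair (90%, 95% Wilson interval 59.6 to 98.2) lay in a 3′UTR, against 1128 of the 2044 other sites (55.2%). The other sites include those outside genes, which the choice of the pair could not hold, and of the 1611 others in a 3′UTR or coding exon 1128 (70.02%) lay in a 3′UTR. The coding class held 1 of the 10 and 483 of the other 2044 (23.6%). Both MANE Select transcripts are mostly 3′UTR. RLIM-201 has 8464 nt of 3′UTR and 1875 nt of coding sequence, and KLHL15-201 has 4201 nt and 1815 nt. The part of these lengths in the 9 of 10 was not tested. The intervals cover counting error only, and sites of 1 gene share their RNA and are not independent.

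The number of sites was read against the number in all genes. Among the 19550 genes that code for protein and have a 3′UTR, 1259 had at least 1 site (6.44%) and 23 had 5 or more (0.118%), without a limit to genes expressed in HEK293 cells. Exactly 5 sites were found in 14 genes, 4 sites in 21 genes just below and 6 sites in 6 genes just above. The other genes with 5 sites were CCND2, EIF1AX, G3BP1, MT-CYB, SLC38A2, SON, SP1, TMBIM6, TMED7, TUBB, VMA21 and ZNF850. They have varied roles, from the cell cycle (CCND2, cyclin D2) and translation initiation (EIF1AX) to stress granules (G3BP1), amino acid transport (SLC38A2) and mitochondrial respiration (MT-CYB). All 5 sites lay in the 3′UTR in 7 of the 14 genes, RLIM among them. The exact 95% Poisson interval of a count of 5 runs from 1.62 to 11.7 sites, so counts of 4, 5 and 6 are not told apart by counting error.

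Both 3′UTRs are long, so the sites were also counted per length. KLHL15 had 4 sites in 4201 nt, or 0.952 sites per kb of 3′UTR, and RLIM had 5 in 8464 nt, or 0.591 per kb. The exact Poisson interval of a count of 4 is 1.09 to 10.2 sites, so these densities are not told apart by counting error. Over the 732 genes with a site in the chosen 3′UTR the median was 0.442 per kb, and KLHL15 ranked 155th and RLIM 280th. Among the genes with 5 sites and a 3′UTR site, the values ran to 2.45 per kb in TMBIM6 and 1.95 per kb in TUBB, and down to 0.345 per kb in G3BP1.

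Genes with a 3′UTR within 1.5-fold of the same length give a closer setting. Of 912 such genes for RLIM, 97 had a site in the 3′UTR (10.6%). A single site was found in 69 of these, at least 3 sites in 9 and at least 5 in 2, and RLIM ranked 4th by density among the 98 bound genes including itself. The median density of those other bound genes was 0.150 per kb. Of 3248 genes of like length for KLHL15, 270 were bound (8.31%), 211 of them by a single site. In that group 20 genes had 3 or more sites and 10 had 4 or more, and KLHL15 ranked 8th of 271 by density, against a median of 0.290 per kb in the others. These ranks follow from the choice of the genes and are no test.

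The genes with 4 or more sites nearest in 3′UTR length to RLIM were G3BP1 (8694 nt), NUFIP2 (8700 nt) and HDAC2 (8030 nt). G3BP1 had 3 sites in its chosen 3′UTR, NUFIP2 had 4 and HDAC2, a histone deacetylase, had 3. Nearest to KLHL15 were ZNF850 (4287 nt), VMA21 (4306 nt) and MED13 (3863 nt). VMA21, an assembly factor of the vacuolar proton pump, had 5 sites in its 3′UTR. ZNF850, a zinc finger gene, had all 5 in its coding sequence, and MED13, a subunit of the Mediator kinase module, had 1 in its 3′UTR and 5 in its coding sequence. A 3′UTR of about the same length therefore went with 0 to 5 listed sites within it.

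**Figure D2:**
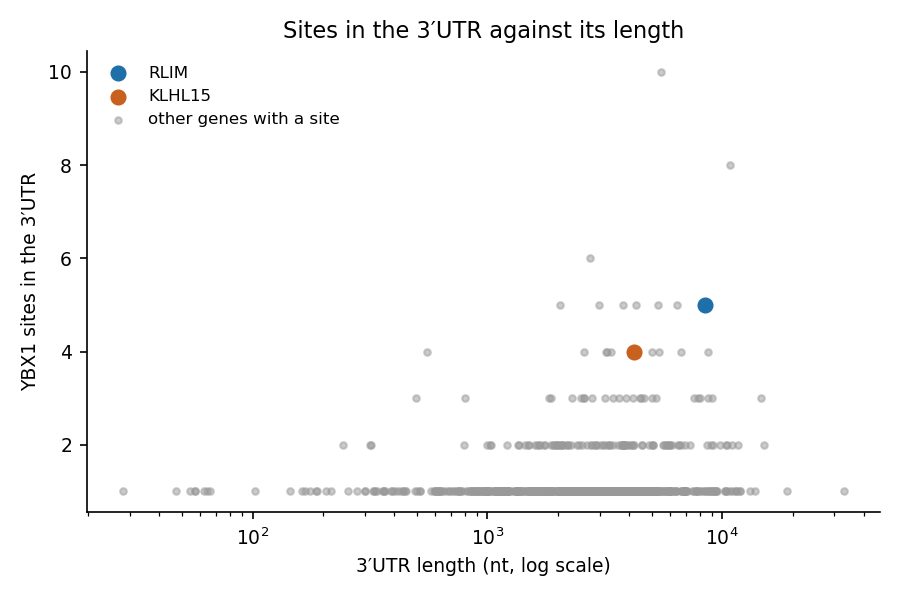
Number of YBX1 sites in the 3′UTR (y axis) against 3′UTR length in nt (x axis, log scale) for the 732 genes with a site in the chosen 3′UTR. RLIM lies at 5 sites and 8464 nt and KLHL15 at 4 sites and 4201 nt, while grey points are the other genes, most of them at 1 site.

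The share of C and A was taken in each site and in the 3′UTR around it. C and A made up 47.4% of the RLIM 3′UTR and 45.2% of the KLHL15 3′UTR. In RLIM the share was 76% in site 2, 63.6% in site 1, 55.6% in site 3, 55% in site 4 and 50% in site 5. In KLHL15 it was 78.3% in site 2, 63.6% in site 5, 57.9% in site 1, 57.7% in site 4 and 56% in site 3. All 9 sites in 3′UTRs were above the share of their own 3′UTR over all bases, by the least in RLIM site 5. RNase T1 trims sites at G, so the share was also taken over bases other than G, where it was 58.9% in the RLIM 3′UTR and 54.5% in that of KLHL15. The 4 KLHL15 sites in the 3′UTR (58.3% to 81.8%) and RLIM sites 1 and 2 (66.7% and 79.2%) were then above it, and RLIM sites 3, 4 and 5 (58.8%, 57.9% and 53.3%) were not. The higher share in the sites thus held for 6 of 9 without G. The coding site, KLHL15 site 1, was above the coding sequence in its exon over all bases (57.9% against 49.3%). Without G it was below (61.1% against 65.0%).

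Each site was also set against windows of its own width that begin after a G and end in G, as RNase T1 would leave them, in the same 3′UTR, leaving out the site itself. RLIM site 4, preceded by T, and KLHL15 site 3, which ends in A, do not meet this rule themselves, so their comparison is less alike. For RLIM site 2, 0 of 311 windows had as high a share of C and A, and for KLHL15 site 2 it was 0 of 113. RLIM site 1 was reached by 23 of 302 windows (7.62%) and KLHL15 site 5 by 8 of 127 (6.30%). At the other end, RLIM site 5 was reached by 130 of 341 windows (38.1%), RLIM site 3 by 88 of 329 (26.7%) and RLIM site 4 by 80 of 299. KLHL15 sites 3 and 4 were reached by 27 of 121 and 13 of 116 windows, and the coding site by 15 of 62 windows of the coding sequence in its exon. Site 2 of each gene therefore stood above all such windows of its 3′UTR, and RLIM sites 3, 4 and 5 well within their range. Windows that also held as many G as the site numbered only 0 to 14 per site, too few to compare. Over all windows of the same width, without the rule on G, 1.30% of 8439 reached RLIM site 2. For KLHL15 site 2 it was 0.479% of 4178, so neither was above every stretch of its 3′UTR.

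**Figure D3:**
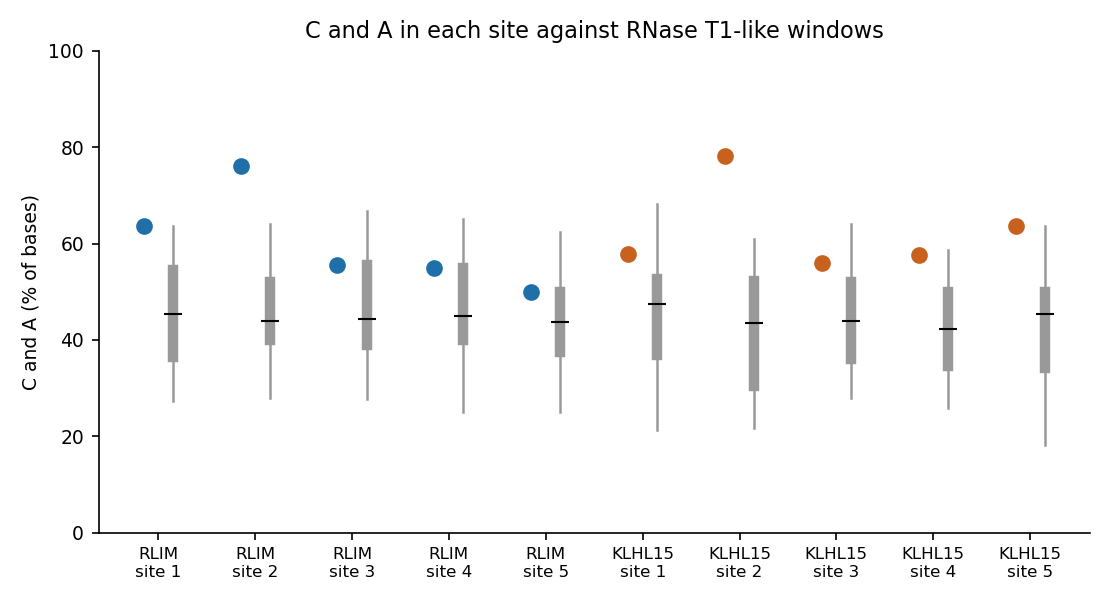
Share of C and A in percent of bases in each site (coloured points) and in equally wide RNase T1-like windows of the same 3′UTR, or for KLHL15 site 1 in the coding sequence of the same exon (black dash, median; thick bar, middle 50% of windows; thin line, middle 90%). RLIM site 2 (76%) and KLHL15 site 2 (78.3%) lie highest, and RLIM site 5 (50%) lies lowest.

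Against other YBX1 sites, the pair was not richer in C and A. The median share was 57.8% in the 10 sites, against 62.5% in 1611 other sites of 3′UTRs and coding exons (middle 50% from 55.6 to 68.4). Pooled over bases, C and A made up 134 of 216 bases (62.0%, 95% Wilson interval 55.4 to 68.2) in the 10 sites and 23539 of 38143 (61.7%) in the others. The split between the 2 bases differed in the medians, with 23.9% C and 38.0% A in the pair against 29.0% C and 33.3% A in the other sites. In the 1128 other sites of 3′UTRs alone, where 9 of the 10 lie, the medians were 27.3% C, 33.3% A and 60.9% for C and A together. Each site held 4 to 10 T, which is the base that 4-thiouridine replaces, with a median of 7 in the pair and 7 in the other sites. The median width was 22 nt in both.

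The tetramers appeared in different sites of the 2 genes. AACT was in 5 of the 10 sites (50%, 95% Wilson interval 23.7 to 76.3), against 485 of the 1611 other sites (30.1%), and these were RLIM sites 4 and 5 and KLHL15 sites 3, 4 and 5. CAAC was in 3 of 10 (30%), all of KLHL15, against 472 of 1611 (29.3%). AACA was in 2 of 10 (20%), both of RLIM, against 528 of 1611 (32.8%). CATC was in 1 of 10 (10%), RLIM site 1, against 451 of 1611 (28.0%), and CACC in 1 of 10, KLHL15 site 4, against 242 of 1611 (15.02%). RLIM site 3 and KLHL15 site 1 held none of the 5 tetramers, so 8 of 10 (80%) held at least 1, against 1203 of 1611 (74.7%). In the 1128 other sites of 3′UTRs alone the shares were 30.4% for AACT, 24.4% for CAAC and 29.9% for AACA. They were 26.1% for CATC, 11.3% for CACC and 71.7% for at least 1. The interval for AACT includes the share in the other sites, and no test was made on 10 sites of 2 genes.

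Within the 3′UTRs the tetramers were far more numerous than the sites. The tetramers were chosen with earlier results of these data known, so their counts inside sites are a description and no test. The KLHL15 3′UTR held CAAC 5 times, of which 3 were inside a site, and its 4 sites cover 96 of 4201 nt (2.29%). The RLIM 3′UTR held CAAC 16 times and CACC 31 times, with 0 of either inside its 5 sites, which cover 101 of 8464 nt (1.19%). AACT occurred 26 times in the KLHL15 3′UTR with 3 inside sites, and 45 times in that of RLIM with 2 inside sites. AACA occurred 54 times in the RLIM 3′UTR with 2 inside sites, and CATC 20 times with 1 inside a site. Most copies of each tetramer therefore lay outside the listed sites, other than CAAC in KLHL15.

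KLHL15 sites 2 and 5 ended alike. They shared the run TACACAAG, which was the only run of 8 nt shared by any pair of the 10 sites, and these 2 were the only sites among all 2054 to hold it. The run was singled out after the sequences were seen. How many of the sites hold other runs of 8 nt was not computed, so its absence elsewhere marks nothing particular. RLIM site 2 also ended in the shorter ACAAG.

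The ends of the sites were read with the listed end left out, a choice made because of the G that RNase T1 leaves, so the counts of G at the ends are partly set by it. On the plus strand the choice sets the last base. On the minus strand, where both genes lie, it sets the base before the site and not the last base. The last base was G in 9 of 10 sites, all but KLHL15 site 3, against 95.03% of the other sites. The base before the site was G in 9 of 10, all but RLIM site 4, which was preceded by T, against 87.3% of the others. Both were G in 8 of 10, against 83.3%.

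Pairing was predicted from sequence with ViennaRNA. The value is the mean predicted probability that a base is unpaired, in the site and in the 100 nt on each side, and it is no measurement. In RLIM it was 0.57, 0.72, 0.66, 0.69 and 0.60 in sites 1 to 5, against 0.43, 0.43, 0.50, 0.41 and 0.44 in their flanks. All 5 RLIM sites were predicted to be less paired than their flanks, by 0.13 to 0.28. In KLHL15 it was 0.66, 0.66, 0.45, 0.53 and 0.45 in sites 1 to 5, against 0.43, 0.53, 0.45, 0.42 and 0.46 in their flanks. KLHL15 sites 1, 2 and 4 were less paired than their flanks, while the difference was 0.00035 at site 3 and -0.012 at site 5, whose sign turned with a shorter folding window. The median of site minus flanks was 0.144 in the 10 sites and 0.108 in 1482 other sites, of which 1221 were above 0.

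**Figure D4:**
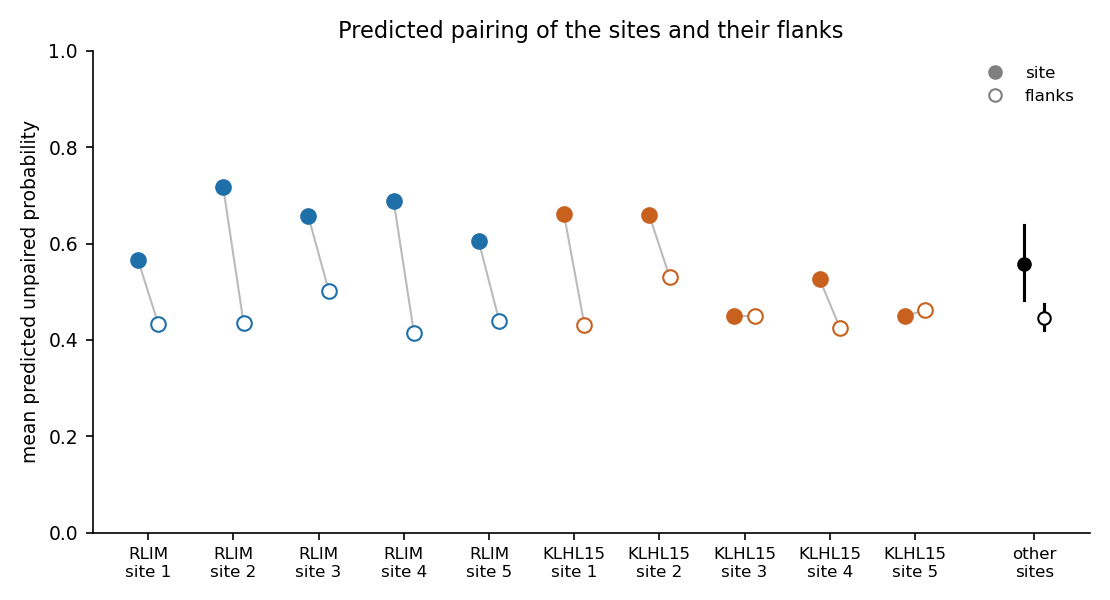
Mean predicted unpaired probability (y axis, 0 to 1) of each site (filled) and of the 100 nt on each side of it (open), beside the median and middle 50% of 1482 other sites in 3′UTRs or coding exons (black). All 5 RLIM sites lie above their flanks, and KLHL15 sites 3 and 5 lie level with theirs.

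A read from a repeated sequence cannot be placed with certainty, so each site was searched for in the whole genome on both strands. Of the 10 sequences, 9 occurred at a single place, and RLIM site 5, the shortest, occurred at 3. Among the other sites, 133 of 1611 (8.26%) were repeated, and of those in 3′UTRs 130 of 1128 (11.5%). With 1 mismatch allowed, RLIM site 5 matched 77 further places and KLHL15 site 1 matched 17, while RLIM sites 2, 3 and 4 matched 1, 7 and 6 and the other 5 sites matched 0.

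RLIM has processed copies, and 1 of them lies near matches to the first sites. Downstream of the pseudogene RLIMP3 (RefSeq) on chromosome 15, RLIM site 2 had a match with 1 mismatch at chr15:49798866-49798890 and site 3 one with 1 mismatch at chr15:49798981-49798998. Site 1 had a match with 2 mismatches at chr15:49798507-49798528. These places lie 2212, 2571 and 2686 nt after the annotated end of RLIMP3 for sites 1, 2 and 3, in the order of the RLIM 3′UTR. Sites 4 and 5 had no place there with fewer than 4 mismatches, nor did any site near RLIMP1 or RLIMP2. Which of the near places gave the reads was not tested, since the list holds no reads.

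**Figure D5:**
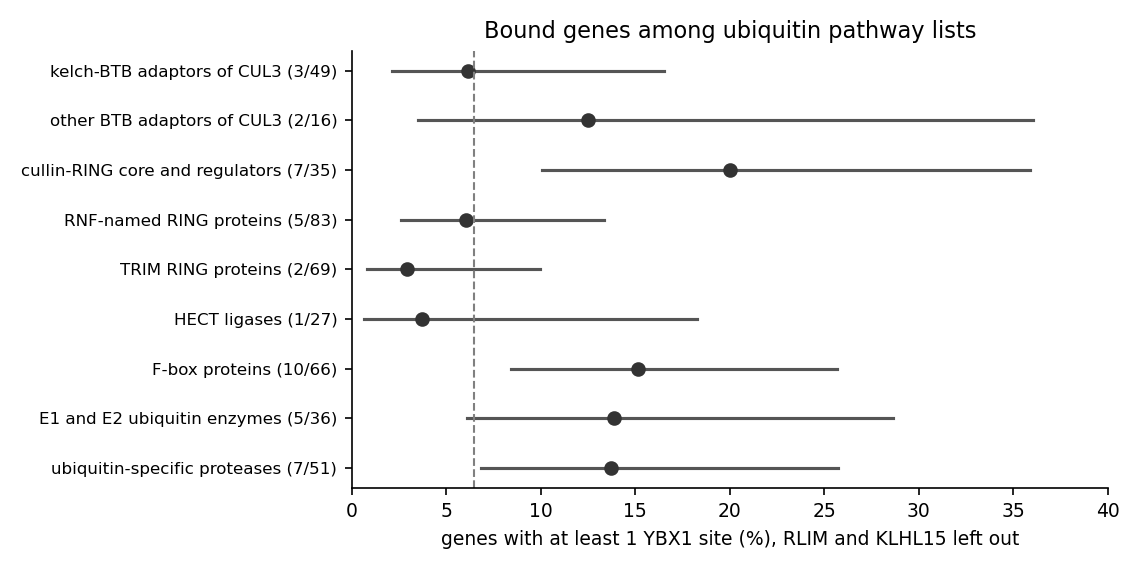
Percent of genes with at least 1 YBX1 site in 9 lists of ubiquitin pathway genes, without RLIM and KLHL15, with 95% Wilson intervals and the number bound over the number of genes. The dashed line marks the share over all genes (6.44%), which kelch-BTB adaptors (3 of 49) and RNF-named RING proteins (5 of 83) lie beside.

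By sites in any region, the families of both genes were bound at about the share of all genes, which was 6.44%. Among 50 kelch-BTB adaptors of CUL3, 4 were bound, namely KLHL15, KLHL11 with 2 sites and KBTBD6 and KLHL9 with 1 each. Without KLHL15 this was 3 of 49 (6.12%), against 6.44% of all genes. With 3′UTR sites only, 2 of the 50 were bound, KLHL15 and KBTBD6, against 4.45% of all genes. The median 3′UTR of this list was 2257.5 nt, against 1064 nt in all genes. Among the RNF-named RING proteins and RLIM, 6 of 84 were bound, which were RLIM, RNF40 with 2 sites and 4 more with 1 each, among them RNF138 and RNF26. Without RLIM this was 5 of 83 (6.02%). With 3′UTR sites only, 5 of the 84 were bound, RLIM among them. RNF6, a paralog of RLIM, had 0 sites and has a 3′UTR of 1049 nt, far shorter than the 8464 nt of RLIM. Outside RLIM and KLHL15, no gene of either family had more than 2 sites.

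Their listed partners and substrates are too few to set against the 6.44% of all genes. Of 10 listed for RLIM, 0 had a site, which were LDB1, LDB2, ZFP42, TERF1, SMAD7, SMURF2, LMO2, LHX2, LHX3 and ISL1. Several of these are genes of particular cell types, and whether HEK293 cells transcribe them was not measured. Of 5 listed for KLHL15, RBBP8 had 1 site in its coding sequence, while CUL3, RBX1, PPP2R5B and DCX had 0.

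Other arms of the pathway ranged more widely around the 6.44% of all genes. The cullin-RING core with its neddylation and COP9 signalosome genes had 7 of 35 bound (20%, 95% Wilson interval 10.04 to 35.9), led by COPS3 and CUL4B with 2 sites each and followed by COPS2 and COPS5 with 1. Both CUL4B sites had repeated sequences. Without repeated sequences 5 of the 35 were bound, against 6.07% of all genes. With 3′UTR sites only it was 4 of the 35, against 4.45% of all genes. F-box proteins, which bring substrates to CUL1 ligases, had 10 of 66 (15.2%, 95% Wilson interval 8.44 to 25.7), with 3 sites in FBXW2 and 1 each in FBXL4 and FBXO17. The E1 and E2 enzymes had 5 of 36 (13.9%, 95% Wilson interval 6.08 to 28.7), with 2 sites in UBE2H and 1 each in UBE2B, UBE2G2 and UBE2K. Ubiquitin-specific proteases had 7 of 51 (13.7%, 95% Wilson interval 6.81 to 25.7), among them USP11, USP12, USP16 and USP24 with 1 site each. Counting 3′UTR sites only, F-box proteins had 7 of 66, E1 and E2 enzymes 4 of 36 and the proteases 3 of 51, against 4.45% of all genes. TRIM proteins had 2 of 69 (2.90%), TRIM44 with 2 sites and TRIM28 with 1, and HECT ligases 1 of 27, UBE3C in its coding sequence. Other BTB adaptors had 2 of 16, BTBD3 and SPOP, and the 4 ubiquitin genes had 0. Over all lists 44 of 447 genes were bound (9.84%, against 6.44% of all genes), a count that includes RLIM and KLHL15, chosen for their sites, and the listed partners. The median 3′UTR in the lists was 1610 nt, against 1064 nt in all genes. The part of 3′UTR length and expression in these shares was not tested. Among the 447, RLIM and KLHL15 were the only genes with 4 or more sites, but both were chosen for their 5 sites, so this is no finding. It also depends on the lists, since FEM1B, described below, is in none of them and had 4 sites.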

How the data were processed

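The deposited list gives start, end, strand, gene name and annotation class of each site, and the authors pooled both replicates before they called the sites. Per the submitters' notes and methods, reads were trimmed with cutadapt 1.4.1, aligned to hg38, called as stranded clusters with BMix and annotated with HOMER. Starts were read as base 1, and sites were ended 1 base before the listed end, because of the G that RNase T1 leaves. On the plus strand the last base was then G in 85.4% of sites, and the base left out was G in 22.3%. On the minus strand, where both genes lie, the base left out is the one before the site on the RNA, and it was G in 74.9%.

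Sites were placed by their midpoint in GENCODE release 44 on their own strand. Lengths came from 1 transcript of each gene, by preference the MANE Select one. Pairing was predicted with ViennaRNA 2.7.2 (window 200 nt, pair span up to 150 nt) and intervals with scipy 1.17.1. Placement and sequence search were tested on simulated data. No p-value was computed. The genes, the 12 lists and the 5 tetramers were chosen with earlier results of these data known. The text names RLIM, KLHL15, the other genes with 5 sites, up to 4 bound genes of each list, all listed partners, RNF6 and the 3 genes nearest in 3′UTR length to each, and 1 gene under this rule is not reported here. Alternatives changed how sites were placed, merged (within 50 nt), widened (by 10 nt), folded (window of 80 nt) and left out (narrow, repeated or outside 3′UTRs).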

Additional observations from a re-analysis of the deposited data

How the results depend on the processing

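Leaving out a replicate was not possible, because both replicates were pooled before the sites were called. With only sites wider than the median of 22 nt, 1 site was left in RLIM (0.118 per kb of 3′UTR), 3 in KLHL15 and 23 bound genes over all lists (5.15%, against 3.46% of all genes). With 3′UTR sites only, 28 of the 44 bound genes in the lists were left (6.26%, against 4.45% of all genes). Both list counts include RLIM and KLHL15. Directions turned in 2 small differences. With a folding window of 80 nt KLHL15 site 5 was at 0.534, against 0.528 in its flanks, and without G the pooled share of C and A was 65.7% in the pair, against 66.2% in other sites. Of the 9 sites above their 3′UTR in C and A, 6 were above it without G, an alternative chosen after seeing the data, as were windows with as many G as the site. With 1 mismatch allowed, 5 of the 10 sequences occurred elsewhere too, against 1 exactly. Without repeated sequences RLIM kept 4 sites and KLHL15 5. The other values for sites, regions, density, C and A and pairing moved by less than the counting interval or 1.5 times, and 12 of 36 values for single lists moved further, all downward. The depth behind a site is unknown, so a gene or region without a site may be one with too few reads.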

Other observations

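Both genes lie on the X chromosome, which was read as a description after their choice. Of the 2054 sites, 91 were on X (4.43%, 95% Wilson interval 3.62 to 5.41), and 81 of 2044 (3.96%) without those of RLIM and KLHL15. Of all protein-coding genes with a 3′UTR, 849 of 19550 (4.34%) are on X, and of the bound ones 44 of 1259 (3.49%). Among the 23 of these genes with 5 or more sites, 5 are on X (21.7%, 95% Wilson interval 9.66 to 41.9), and without RLIM and KLHL15 3 of 21 (14.3%, 95% Wilson interval 4.98 to 34.6). The 5 are IRS4 with 6 sites and EIF1AX, KLHL15, RLIM and VMA21 with 5 each. Repeated sequences, which cannot be placed with certainty, made up 3 of the 5 sites in EIF1AX and 1 of the 5 in RLIM. FAM199X, SCML1 and SMC1A, the core cohesin subunit, had 3 sites each. The median 3′UTR of X-linked genes was 809 nt, against 1064 nt in all genes. IRS4, FAM199X, SCML1 and SMC1A were named after their values were seen.

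FEM1B, a substrate receptor of CUL2 ligases that is in none of the lists, had 4 sites, 3 in its 3′UTR and 1 in its coding sequence. It was also named after its values were seen.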
